A study of Rattus norvegicus with 6 samples.

Results

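The 10 genes described here are the ERBB receptors Egfr, Erbb2, Erbb3 and Erbb4 and the EGF family ligands Egf, Tgfa, Hbegf, Btc, Ereg and Nrg1, chosen by gene symbol from the 30562 rows of a read count table. All 10 symbols had a row, and the values come from bulk RNA-seq of 6 mammary tumors of female F344 rats, an inbred strain much used in aging studies. Tumors 102, 107 and 116 came from older rats, obtained at 19 to 21 months and treated at 21 to 23 months, and tumors 157, 158 and 167 from younger rats, bought at 6 to 8 weeks and treated at 4 months. Every rat, older or younger, carried a 50 mg subcutaneous pellet of the progestin MPA, made to last 90 days, and then received DMBA, a carcinogen, by gavage at 65 mg per kg, so that no tumor lacks either agent. The younger cohort formed only these 3 tumors, whereas the 3 older tumors were those with enough tissue, and each tumor gave 1 library. The study describes the tumors of each age group as coming from separate rats, so the p-values measure the spread between animals. Library totals ran from 3508571 to 6525830 counts, and the 10 genes took between 0.0438% and 0.0725% of them. Luminal epithelial markers were present in the labelled mammary tumors. Each of the 12 found in the table (Epcam, Krt8, Krt18 and others) had at least 16 counts in every tumor. Their presence shows epithelium and does not by itself identify the gland.

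ERBB receptors are tyrosine kinases that sit in the plasma membrane as monomers and pair when a ligand binds. EGFR binds EGF, transforming growth factor alpha, HB-EGF, betacellulin, epiregulin and amphiregulin, while ERBB3 and ERBB4 bind neuregulins, and ERBB4 also takes betacellulin, HB-EGF and epiregulin. ERBB2 has no known ligand of its own and acts as the preferred partner of the others, and ERBB3 has little kinase activity and signals through its partner to phosphatidylinositol 3-kinase. The ligands are made as membrane proteins and released by proteases such as ADAM17, and in the mammary gland the family serves ductal growth, alveolar development and lactation. ERBB2, also called HER2 or neu, is the receptor whose gene is amplified in a class of human breast cancers.

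Promoter windows from RefSeq (assembly GRCr8) were matched by symbol for 7 of the 10 genes. Those of Egfr, Erbb4, Egf and Btc are printed because these genes show the range of behavior among the tumors described below, from a ligand that hardly varied (Egf) to genes with a single high tumor (Erbb4) or with very few reads (Btc). Areg, which encodes amphiregulin and is no member of the list, was added after its values were seen. The reasons were that it neighbors Btc and that its level ranged more widely, 30.2-fold over the tumors against 19.6-fold for Btc. The bases lie before the outermost annotated start of any transcript of the gene, which leaves 223 bases for Erbb4 and 216 for Egf of a 250-base window, the ones nearest the start being left out. They are written 5′ to 3′ along the gene's own strand and carry capitals where a GC box (GGGCGG on either strand) was found.
Egfr (chr14:95378376-95378625, plus strand): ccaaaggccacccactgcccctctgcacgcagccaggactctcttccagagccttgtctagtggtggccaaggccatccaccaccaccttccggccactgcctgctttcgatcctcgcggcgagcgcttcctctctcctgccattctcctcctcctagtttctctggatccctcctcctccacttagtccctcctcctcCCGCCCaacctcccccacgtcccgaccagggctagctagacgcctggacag
Erbb4 (chr9:78045634-78045856, minus strand): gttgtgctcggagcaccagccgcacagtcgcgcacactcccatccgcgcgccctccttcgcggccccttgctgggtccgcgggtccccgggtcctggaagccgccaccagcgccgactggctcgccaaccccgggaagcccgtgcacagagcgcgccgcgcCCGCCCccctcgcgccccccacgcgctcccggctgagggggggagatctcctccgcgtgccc
Egf (chr2:220976332-220976547, minus strand): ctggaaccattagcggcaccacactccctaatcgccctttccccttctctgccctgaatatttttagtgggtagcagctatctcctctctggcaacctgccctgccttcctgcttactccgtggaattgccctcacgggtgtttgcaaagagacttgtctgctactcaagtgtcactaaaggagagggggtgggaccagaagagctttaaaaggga
Btc (chr14:16992418-16992667, plus strand): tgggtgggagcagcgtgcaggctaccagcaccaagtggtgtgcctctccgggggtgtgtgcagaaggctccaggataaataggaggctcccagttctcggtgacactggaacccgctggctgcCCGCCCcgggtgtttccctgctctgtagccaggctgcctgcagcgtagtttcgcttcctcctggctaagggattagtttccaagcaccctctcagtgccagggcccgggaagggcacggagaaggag
Areg (chr14:17265642-17265891, minus strand): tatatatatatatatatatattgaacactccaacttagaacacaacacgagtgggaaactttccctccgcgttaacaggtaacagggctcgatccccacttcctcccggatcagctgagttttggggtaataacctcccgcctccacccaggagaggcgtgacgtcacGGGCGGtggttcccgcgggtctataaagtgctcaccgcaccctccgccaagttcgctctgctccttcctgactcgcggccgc
Over the full windows of 250 bases, including those not printed, 5 of the 7 members matched (Egfr, Erbb2, Erbb4, Tgfa and Btc) held a GC box, as did 30.5% of 33469 such windows in the rat table. The GC content of these full windows was 63.6% for Egfr, 73.6% for Erbb4, 51.6% for Egf and 62.8% for Btc, against a median of 51.2% over all windows. None of the 7 held the letters TATAAA or the cyclic AMP response element TGACGTCA, on either strand, whereas the Areg window held both, found in 12.9% and 1.59% of all windows. The letters CCAAT were found in Erbb2 and Hbegf, 2 of the 7 members (34.0% of all windows), and those of an AP-1 site, TGANTCA, in none (6.34%). In Areg the element TGACGTCA began 91 bases before the start and the GC box 82 bases before it. These matches describe the letters only.

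The comparison of older with younger tumors asked whether host age went with a different level of receptor or ligand mRNA. It did not separate the age groups for any of the 10 genes: 0 of the 9 that could be tested passed an adjusted p of 0.05 in edgeR's quasi-likelihood test, where 0% of all 14060 genes tested passed. At an unadjusted p under 0.05 the count was again 0 of 9, where 8.56% of all genes tested had such a p. With a tumor left out it was 1 in 3 of the 6 cases, namely Tgfa without tumor 107, Nrg1 without tumor 116 and Btc without tumor 157, and the adjusted count stayed at 0. DESeq2, an alternative test, called 0 of the 9 and 2.47% of the genes to which it gave an adjusted p, and limma-voom called 0 of the 9 and 0% of all genes. CPM (counts per 1000000 of the library total, scaled with edgeR's TMM factors) overlapped between the age groups for all 10 genes, where 12.2% of all genes tested had groups that did not overlap. By sign alone 6 of the 9 were lower and 3 higher in older tumors, with a median log2 fold change of -0.14 beside -0.0033 over all genes tested. Since transcript lengths were not used, levels of different genes are not set against each other, and each gene is followed across the tumors.

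**Figure D1:**
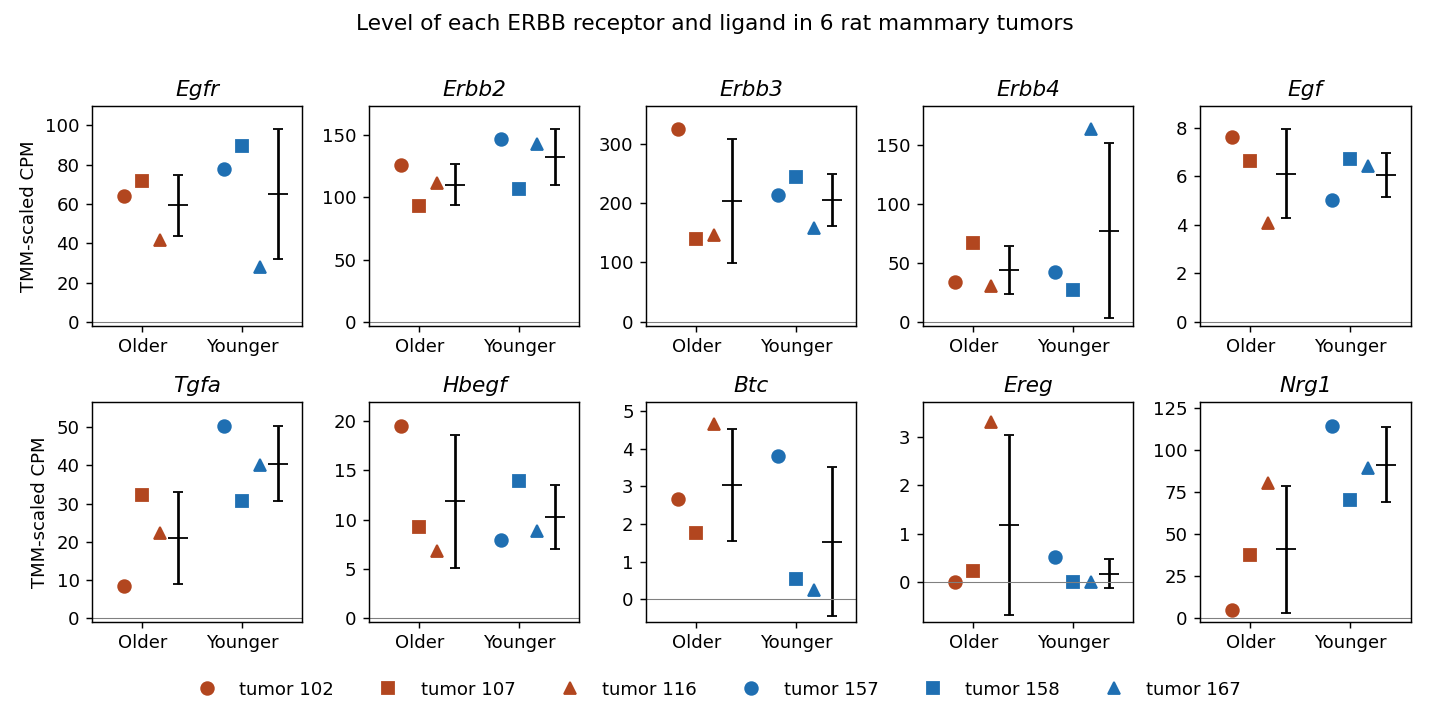
TMM-scaled CPM of each of the 10 genes in the 6 tumors, a panel per gene with its own linear axis. Each symbol is a tumor (red, older; blue, younger), and the black marks give the mean and SD of the 3 tumors of an age group; the age groups overlap in every panel, tumor 102 is lowest for Nrg1 and Tgfa, and tumor 167 is highest for Erbb4.

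Among the receptors, Erbb2 varied least. It stood at 126, 93.1 and 111 CPM in older tumors 102, 107 and 116 and at 147, 106 and 143 CPM in younger tumors 157, 158 and 167. The highest tumor was thus 1.58-fold above the lowest, and younger tumor 158 lay within the older range. Its log2 fold change, older against younger, was -0.26 ± 0.24 (SE, 95% interval -0.82 to 0.30, edgeR adjusted p = 0.871), the narrowest interval of the 9 genes. It stayed between -0.39 (without tumor 158) and -0.16 (without tumor 107).

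Egfr, the receptor of the EGF-type ligands, was at 64.0, 71.7 and 41.8 CPM in the older tumors and at 77.6, 89.7 and 27.7 CPM in the younger ones. Both the highest tumor (158) and the lowest (167) were younger, so that the older tumors all fell inside the younger range. Its change by age of -0.14 on the log2 scale (standard error 0.44, 95% interval -1.17 to 0.89, adjusted p = 0.970, edgeR) was smaller than its standard error. Leaving out a tumor moved it between -0.50 (without tumor 167) and 0.17 (without tumor 158).

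Erbb3, which couples its partners to phosphatidylinositol 3-kinase, was at 324, 139 and 147 CPM in older tumors 102, 107 and 116 and at 213, 244 and 158 CPM in younger tumors 157, 158 and 167. Tumor 102 held the highest value and the other older tumors the 2 lowest ones. The group means were 203 ± 105 CPM (SD, n = 3) and 205 ± 44.0 CPM (SD, n = 3), with a log2 fold change of -0.02 ± 0.38 (SE, 95% interval -0.91 to 0.88, edgeR adjusted p = 0.995). Without tumor 102 the log2 fold change was -0.53.

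Erbb4, known in the mammary gland for its part in lactation through STAT5A, was the receptor that varied most. It was at 33.8, 67.3 and 30.4 CPM in the older tumors and at 42.3, 27.1 and 164 CPM in younger tumors 157, 158 and 167. Tumor 167 alone was high, 2.43-fold above the next tumor (107), and the same tumor had the lowest Egfr. The log2 fold change of -0.82 ± 0.67 (SE, 95% interval -2.38 to 0.74, edgeR adjusted p = 0.843) turned to 0.33 without tumor 167 and was -0.44 with limma-voom.

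A ratio of 2 receptors within a tumor does not depend on how libraries are scaled, and it was followed across tumors for the other receptors relative to Erbb2. The log2 ratio of Egfr to Erbb2 was -0.92 ± 0.52 (SD, n = 3) in older and -1.17 ± 1.07 (SD, n = 3) in younger tumors. For Erbb3 it was 0.77 ± 0.51 and 0.62 ± 0.53 (SD, n = 3 each), and for Erbb4 -1.40 ± 0.81 and -1.18 ± 1.20 (SD, n = 3 each). The differences between age groups were 0.25, 0.15 and -0.22, each smaller than the SD within either group (two-sided exact permutation tests, p = 0.9, 0.6 and 0.8, all 0.9 after adjustment over the 3 ratios; 3 tumors against 3 cannot give a p below 0.1). Within the younger group the ratios spread widely: in tumor 167 that of Egfr to Erbb2 was -2.35 and that of Erbb4 to Erbb2 0.20, against -0.25 and -1.96 in tumor 158.

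**Figure D2:**
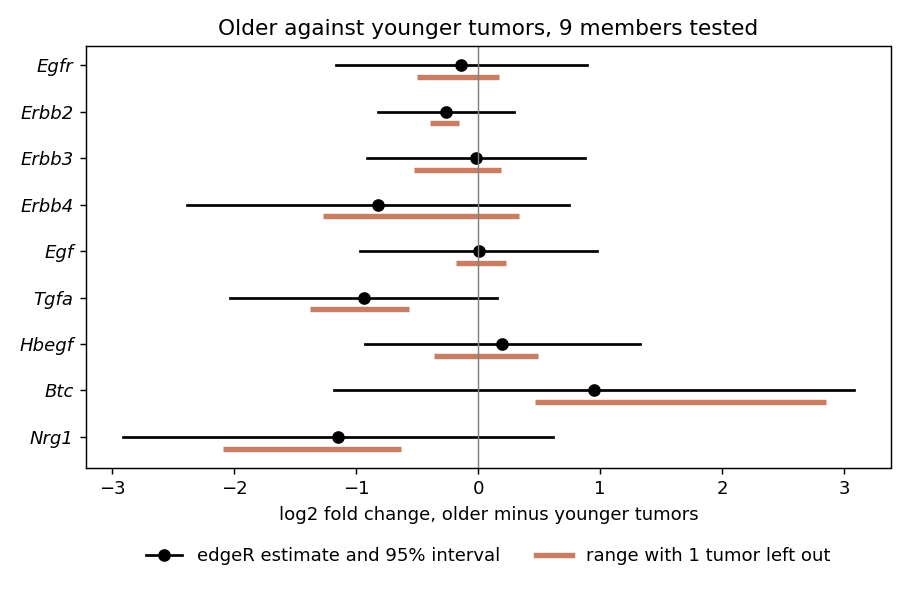
Log2 fold change of older against younger tumors for the 9 genes tested. Black points and lines are edgeR estimates with 95% intervals, and red bars are the range of the estimate when each tumor in turn is left out; every interval spans 0, and the bars of Egfr, Erbb3, Erbb4, Egf and Hbegf span it too.

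Of the ligands of EGFR, Egf was the steadiest. It had only 21 to 38 counts per library, which gave 7.63, 6.62 and 4.09 CPM in older tumors 102, 107 and 116 and 5.01, 6.72 and 6.45 CPM in younger tumors 157, 158 and 167. The values of the 2 groups interleaved, and the log2 fold change was 0.0039 ± 0.42 (SE, 95% interval -0.97 to 0.97, edgeR adjusted p = 0.999). Hbegf, which encodes a heparin-binding ligand, was at 19.6, 9.26 and 6.81 CPM in the older and at 7.95, 14.0 and 8.83 CPM in the younger tumors. Tumor 102 was highest and tumor 116 lowest for both Egf and Hbegf. The 6 tumors fell in the same rank order for the pair, the closest in rank among all pairs of tested members. The middle ranks of Egf rested on 38, 30 and 27 counts in tumors 158, 107 and 167, too close in CPM to be told apart. The end ranks of Egf were no firmer, with 23 counts in tumor 102, 21 in tumor 116 and 29 in tumor 157. The log2 fold change of Hbegf, 0.20 ± 0.49 (SE, 95% interval -0.93 to 1.32, edgeR adjusted p = 0.959), became -0.36 without tumor 102.

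Tgfa, which encodes transforming growth factor alpha, came closest of the 9 genes to a difference by age. It was at 8.29, 32.2 and 22.4 CPM in older tumors 102, 107 and 116 and at 50.5, 30.8 and 40.1 CPM in younger tumors 157, 158 and 167. Older tumor 107 lay above younger tumor 158, and this pair made the overlap. The means of 21.0 ± 12.0 and 40.4 ± 9.85 CPM (SD, n = 3 each) correspond to a log2 fold change of -0.94 (standard error 0.47, 95% interval -2.03 to 0.15), with an unadjusted p of 0.0827 and an adjusted p of 0.677 in edgeR's test. The sign held with every tumor left out, from -1.38 (without tumor 107) to -0.57 (without tumor 102).

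Nrg1, which encodes the neuregulin ligand of ERBB3 and ERBB4, spread more than any other of the 9 genes. It was at 4.97, 37.5 and 80.4 CPM in older tumors 102, 107 and 116 and at 115, 70.0 and 89.5 CPM in younger tumors 157, 158 and 167, a 23.1-fold range. Tumor 102, with 15 reads, stood 7.54-fold below the next lowest tumor (107), and older tumor 116 lay inside the younger range. The SD of its log2 CPM over the 6 tumors, 1.63, was as large as or larger than that of 97.6% of all genes tested, where Erbb2 reached 17.2%. The log2 fold change of -1.15 ± 0.76 (SE, 95% interval -2.91 to 0.62, edgeR adjusted p = 0.784) was -0.63 without tumor 102 and -2.09 without tumor 116.

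Btc and Ereg, which encode betacellulin and epiregulin, were at the limit of detection. Ereg had 21 counts in all and failed the filter on low counts: 17 of them came from older tumor 116 (3.31 CPM, exact Poisson 95% interval 9.90 to 27.2 counts), with 1 in tumor 107 and 3 in tumor 157. It had no count in tumors 102, 158 and 167. A limit of 3 counts per library is worth 0.995, 0.531 and 0.716 CPM there, for counting error only. The exact Poisson 95% interval for 0 counts reaches somewhat higher, to 3.69 counts. The CPM of Ereg overlapped between older and younger tumors (p = 0.7, exact permutation, two-sided). Btc had 8, 8 and 24 counts in the older tumors and 22, 3 and 1 in younger tumors 157, 158 and 167. These correspond to 2.65, 1.76 and 4.67 CPM against 3.80, 0.531 and 0.239 CPM, so that tumor 116 was highest but younger tumor 157 lay above the other older tumors. The result was a log2 fold change of 0.95 ± 0.92 (SE, 95% interval -1.18 to 3.08, edgeR adjusted p = 0.875). Without tumor 157 this value was 2.85, and with limma-voom 1.56, short of the threshold in either case.

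In the RefSeq gene order (GRCr8) the ligand genes Btc, Areg, Ereg and Epgn follow each other directly on chromosome 14. Older tumor 116 had the highest level of 3 of them, as it did for 11.2% of all genes tested. For Btc that lead was 24 counts against 22 in tumor 157, within counting error. For Ereg it rested on the 17 counts of tumor 116. Areg, a ligand known as a mediator of estrogen action in ductal growth, was at 160 CPM there, 3.95-fold above the next tumor, against 5.31 CPM in tumor 102, 33.1 in tumor 107, and 25.9, 27.2 and 40.6 CPM in younger tumors 157, 158 and 167. Its log2 fold change of 1.09 ± 0.94 (SE, edgeR adjusted p = 0.856) was -0.69 without tumor 116 and 0.22 with limma-voom. Epgn, which encodes epigen, had a single read in each of tumors 102 and 167 and none elsewhere.

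The remaining neuregulin genes also had single tumors that stood apart. Nrg2 was at 1.66 CPM in tumor 102 and between 11.5 and 22.7 CPM in the other 5 tumors, so that tumor 102 was the lowest for Nrg1, Nrg2, Tgfa and Areg alike. Nrg4, whose product binds ERBB4, had 291 reads in younger tumor 158 (51.5 CPM) and 11 to 31 in the other 5 tumors. Its log2 fold change of -2.60 (standard error 1.02, unadjusted p = 0.0361, adjusted p = 0.531, edgeR) shrank to -0.45 without tumor 158. Nrg3 stayed at 9 reads or fewer.

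Tgfa and Nrg1 shared their extremes, lowest in tumor 102 and highest in tumor 157, while Hbegf, Egf and Erbb3 were highest in tumor 102. Tumor 102 was the highest or the lowest of the 6 for 5 of the 9 tested members. The tumor held extremes of many other genes as well, with 26.0% of all genes tested at their highest and 27.3% at their lowest there.

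**Figure D3:**
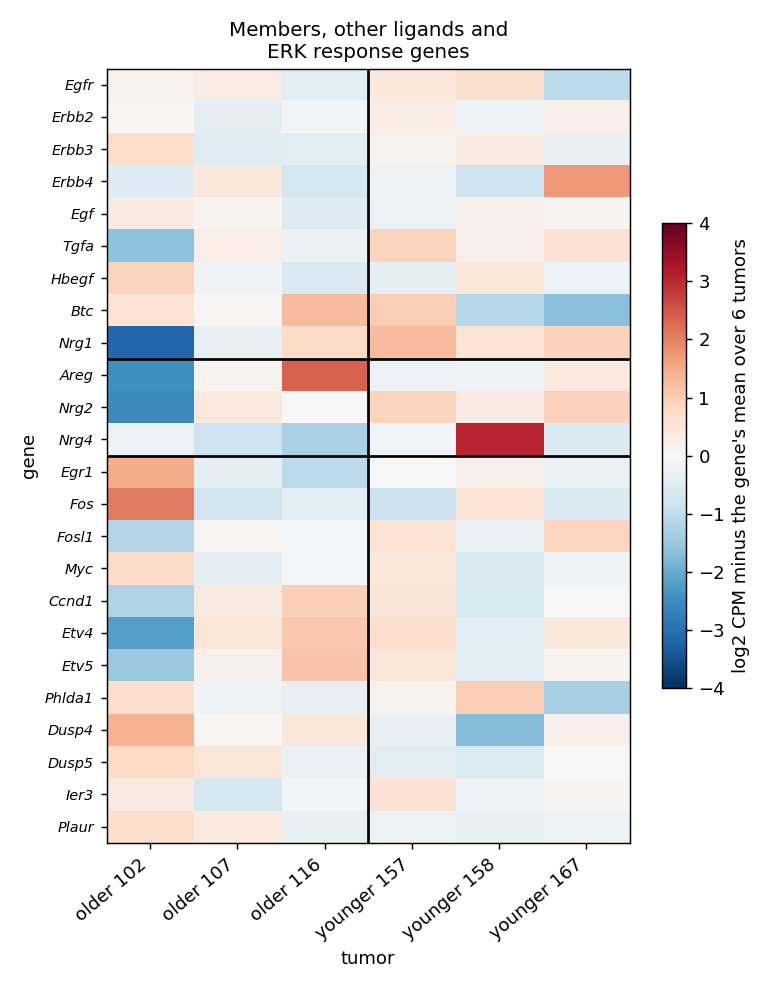
Log2 CPM (prior count 2) of 24 genes in the 6 tumors, each gene centred on its mean over the tumors; from top to bottom the 9 tested members, the 3 other tested ligands, and 12 genes that respond to the kinase ERK. Blue is below and red above the gene's mean; tumor 102 shows the low values of Nrg1, Nrg2, Tgfa and Areg next to high Fos and Egr1, tumor 158 the high Nrg4 and tumor 116 the high Areg.

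Markers of other cells also differed between the tumors. The myoepithelial score (mean log2 CPM of 9 tested markers such as Krt5, Krt17 and Acta2) was 5.64 in tumor 102, 7.99 in tumor 107 and 6.71 in tumor 116, against 7.68 to 8.11 in younger tumors, and 6 of these 9 genes were lowest in tumor 102, the tumor with the least Nrg1, Nrg2 and Tgfa. Krt5, a basal keratin, was at 40.8 CPM in tumor 102 and between 196 and 721 CPM in the others. Itgb4, of the same list, was at 239 CPM in tumor 102, below tumor 157 only (407 CPM). In tumors 107 and 116 Nrg1 ran against the score, at 37.5 and 80.4 CPM. Of all genes tested, 27.3% were lowest in tumor 102. The luminal score (12 markers) was 6.47, 6.46 and 6.98 in the older tumors and 6.87 to 7.40 in the younger ones, and 11 of the 12 had a negative log2 fold change (score difference -0.59, two-sided exact permutation test, p = 0.2). The macrophage score was higher in all older tumors (4.98 to 5.62 against 3.67 to 4.46, p = 0.1, exact permutation). The part of these cells in the values of the receptors and ligands was not tested, and in bulk tissue fewer cells of a type and less RNA per cell cannot be told apart. Fibroblast scores (10 markers) were 6.64, 3.46 and 5.52 in the older and 5.60, 5.73 and 3.52 in the younger tumors, and older-minus-younger differences were 0.26 for fibroblasts, 0.47 for endothelium and 1.15 for adipocytes (p = 1, 0.5 and 0.1, exact permutation). The adipocyte score was 5.25 in tumor 102, 3.15 and 3.45 in older tumors 107 and 116, and 2.15 to 3.15 in the younger tumors. All 5 tested adipocyte markers were highest in tumor 102, as were 26.0% of all genes tested. Of other tissues rich in the receptors and ligands, skin left at most 23.6 CPM summed over its markers, with Ivl, Sprr1a and Krtdap at 0 in every tumor, and skeletal muscle 5.84 to 63.1 CPM. Salivary gland markers reached 8.36 CPM, nearly all Smr3b in tumor 167, the tumor highest for Erbb4. Schwann cell markers summed to 191 to 498 CPM, mainly Sox10, which mammary epithelium also expresses.

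Each receptor was also set against the luminal and the fibroblast score over the 6 tumors, 8 relations in all, and none passed the threshold after adjustment. Erbb3 followed the fibroblast score most closely in rank (Pearson's r = 0.80, permutation p = 0.0653, adjusted 0.261; Spearman's rho = 0.94, permutation p = 0.0167, adjusted 0.133), and r was 0.84 without the 2 tumors farthest from the median score (107 and 167). Erbb4 ran against it (r = -0.83, permutation p = 0.0431, adjusted 0.261; rho = -0.66, permutation p = 0.175, adjusted 0.467), but r was 0.03 without the same 2 tumors, so that this relation rests on them. For Erbb2 and the luminal score r was 0.74 (permutation p = 0.103, adjusted 0.274; rho = 0.77, permutation p = 0.103, adjusted 0.411), and 0.45 without those tumors. Age groups of 3 tumors are too small for values within a group.

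Beyond the members, 78 genes linked to the pathway (the other ligands, sheddases, effectors, feedback and response genes, and neighbors of Erbb2) were read from the same fit. Of these 73 were tested and 0 passed in either direction, with 6 higher and 4 lower in older tumors at an unadjusted p under 0.05 (8.56% of all genes tested, both directions) and 8 whose age groups did not overlap (12.2% of all genes tested). The median log2 fold change was 0.06 over all 73, -1.03 for the 3 other ligands tested and -0.13 for the sheddases. It was 0.07 for adaptors and effectors, 0.05 for feedback and turnover, 0.24 for ERK response genes and -0.03 for the neighbors of Erbb2. Among 8 sheddases and their partners 6 had a negative value, and the smallest p in each direction belonged to Adam12, a metalloprotease (log2 fold change -0.73 ± 0.27, SE, edgeR adjusted p = 0.486), and to Rhbdf2, a partner of ADAM17 (0.53 ± 0.32, SE, edgeR adjusted p = 0.758). Of 23 adaptors and effectors, 13 had a positive and 10 a negative log2 fold change. Pik3r3, a regulatory subunit of phosphatidylinositol 3-kinase, had one of -1.26 ± 0.38 (SE, edgeR adjusted p = 0.366). Among 20 genes of feedback and receptor turnover, Spry1, an inhibitor of receptor tyrosine kinase signaling, had a value of 1.21 ± 0.45 (SE, edgeR adjusted p = 0.495) and Eps15, an endocytic adaptor, one of -1.43 ± 0.48 (SE, edgeR adjusted p = 0.428).

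Of the 12 genes that respond to ERK, 0 were called and 0 had an unadjusted p under 0.05. Dusp5 (0.75 ± 0.34, SE, edgeR adjusted p = 0.613) and Fosl1 (-0.75 ± 0.52, SE, edgeR adjusted p = 0.800) had the smallest p in each direction. The ETS factor genes Etv4 and Etv5 and the cyclin gene Ccnd1, singled out after their values were seen, were lowest in tumor 102 and highest in tumor 116. Etv4 was at 4.64 and 48.8 CPM in these tumors and Etv5 at 23.5 and 149 CPM, with the other 4 tumors between. Areg too was lowest in tumor 102 and highest in tumor 116. The immediate early genes Fos and Egr1, singled out likewise, were highest in tumor 102, at 808 and 721 CPM against at most 284 and 300.3 CPM elsewhere. Of the 12 genes, 6 were highest and 4 lowest in tumor 102, beside 26.0% and 27.3% of all genes tested.

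Erbb2 was set beside its neighbors on chromosome 10, several of which are amplified with it in human breast cancer. Of 11 such genes 8 were tested and 0 were called. Erbb2 was highest in younger tumor 157, whereas Mien1 and Stard3 were highest in tumor 158 and Grb7 and Pgap3 in tumor 167, so that no tumor held the top value of Erbb2 and of these tested genes nearest to it. The range over tumors was 1.58-fold for Erbb2, 1.55-fold for Stard3, 2.35-fold for Mien1 and 2.41-fold for Grb7, an adaptor that binds ERBB2. The number of gene copies cannot be read from these RNA counts. The study also describes exome and low-pass genome sequencing of tumors, which was not used here. The exception in size was Ikzf3, a lymphocyte transcription factor, with 29, 198 and 24 reads in the older tumors and 2 to 4 in the others, giving a log2 fold change of 5.02 ± 0.97 (SE, edgeR adjusted p = 0.228) that DESeq2 alone called (adjusted p = 2.58e-05). Ppp1r1b, a phosphatase regulator, had the smallest p among those lower in older tumors (-0.64 ± 0.30, SE, edgeR adjusted p = 0.636).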

How the data were processed

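Bulk RNA-seq of 6 mammary tumors, 3 from older and 3 from younger rats, was used as deposited. Per the series text, the authors ran FastQC, removed adapters, aligned with STAR, marked duplicates and counted reads per gene with HTSeq (0.13.5 in the submitters' processing notes, which name the build mRatBN7.2), and the deposited counts are raw. Libraries were depleted of ribosomal RNA, although the labels say polyA RNA; the annotation, the strand setting and the handling of marked duplicates are not given in the sources used here. Reads from overlapping or antisense genes cannot be told apart without strand.

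In R 4.3.3, genes were kept with filterByExpr (14060 of 30562 rows; 4367 rows have no name), scaled by TMM and compared, older against younger, with the quasi-likelihood test of edgeR 4.0.16 without covariates, with Benjamini-Hochberg adjustment over all genes tested and a threshold of 0.05. Standard errors were taken back from the F statistic. CPM are counts over TMM-scaled totals, and log2 CPM used a prior count of 2. In these units 3 counts are worth 0.518 to 0.995 CPM, and intervals on counts cover counting error only. The scripts were tested on simulated data. DESeq2 1.42.0, limma 3.58.1 (voom), other scalings and filters, and leaving out each tumor were alternatives. Named were all members, the other ligands, and the gene with the smallest p in each direction of each pathway list. Some items that this rule or a marker list would name are not reported here. The members, lists and markers were chosen with earlier results of these data known. Promoters were matched by symbol to RefSeq (GRCr8); none was matched for Erbb3, Ereg and Nrg1. 0 columns of the table were left unused.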

Additional observations from a re-analysis of the deposited data

How the results depend on the processing

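No paired analysis was possible because the age groups share no replicate numbers. The count of genes differing by age, 0 with edgeR (1203 at an unadjusted p under 0.05), was 346 with DESeq2 and 1 with every gene that had at least 1 count, and 0 under limma-voom, other scalings, the stricter filter, without the 10 most abundant genes and with each tumor left out. The count of members called was 0 under every setting run. That of pathway genes called was 1 with DESeq2 (Ikzf3, whose log2 fold change was 5.08 there) and 0 otherwise. The near-zero log2 fold change of Egf changed sign with DESeq2's size factors (-0.0012), library totals (-0.078), DESeq2 (-0.0074), limma-voom (-0.058), at least 1 count (-0.026), without the 10 most abundant genes (-0.0051) and with 10 counts required in each tumor (-0.0063). With limma-voom the log2 fold change also moved by over 1.5 times for Egfr (-0.032), Erbb3 (-0.099), Erbb4 (-0.44), Hbegf (0.012), Btc (1.56) and Areg (0.22), and with library totals for Erbb3 (-0.11) and Hbegf (0.12). The near-zero value of Erbb3 moved as much with at least 1 count (-0.056), without the 10 most abundant genes (-0.026) and with 10 counts required in each tumor (-0.024). With a tumor left out, the sign also changed for Egfr (-0.50 to 0.17), Erbb3 (-0.53 to 0.19), Erbb4 (-1.27 to 0.33), Egf (-0.19 to 0.23), Hbegf (-0.36 to 0.49) and Areg (-0.69 to 1.64), and held for Erbb2, Tgfa, Nrg1 and Btc. The older-minus-younger differences of the log2 ratios to Erbb2 then ranged from -0.33 to 0.72 for Egfr, from -0.14 to 0.44 for Erbb3 and from -0.69 to 0.47 for Erbb4. Members whose age groups do not overlap, 0 of 10 with all tumors, numbered from 1 to 3 with a tumor left out, the 3 (Erbb2, Tgfa and Nrg1) without tumor 158; between 17.7% and 26.6% of all genes tested then did not overlap, and these settings were chosen after seeing the data. Btc was not tested where 10 counts in every tumor were required. Relations with marker scores kept their sign and stayed short of the threshold with library totals and with a prior count of 0.5. Depth limits Btc and Ereg.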
